A study of Mus musculus with 12 samples.

Results

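The genes described here serve the uptake of glucose and fructose and the first steps of their use. They are 9 genes chosen by name, out of 55416 genes listed in each of the deposited tables: the sodium-coupled transporters Slc5a1 and Slc5a9, the facilitative transporters Slc2a1, Slc2a2, Slc2a5, Slc2a7 and Slc2a9, the fructose kinase Khk and the arrestin-like protein Txnip. All 9 were found in both tables, once each. RNA-seq was performed on the duodenum (labelled intestine) and the liver of male C57BL6/J mice that were 8 weeks old at the start. The mice were injected subcutaneously every day for 8 weeks with corticosterone (CORT, 40 mg/kg), the main glucocorticoid of rodents, or with the vehicle (Veh), a mixture of DMSO, Tween-80 and water. No mouse carried a transgene or a deletion by the labels or the study's methods, and both groups had free access to food and water. The paper reports that food intake, water intake and body weight were higher with CORT, and their part in the values below was not tested. Each tissue had 3 Veh and 3 CORT libraries, labelled as biological replicates, which gives 12 libraries in all. Whether the liver and duodenum libraries with the same number came from 1 mouse is not given in the sources used here.

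In the small intestine, glucose enters the absorptive enterocyte from the lumen through SGLT1, the product of Slc5a1, which carries it together with sodium. Fructose enters through GLUT5, the product of Slc2a5, and both sugars leave toward the blood through GLUT2, the product of Slc2a2. Ketohexokinase (Khk) phosphorylates fructose inside the cell, and triokinase (Tkfc) later feeds glyceraldehyde derived from it into glycolysis. In the liver, GLUT2 carries glucose both ways. Txnip binds thioredoxin, promotes the removal of glucose transporters from the cell surface and is itself a known target of the glucose-sensing transcription factors ChREBP and MondoA.

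Levels are given in TPM, a share of the library's transcripts scaled for transcript length, so that genes can be compared within a library. A TPM value carries no read depth, so neither a counting interval nor a detection limit can be given, and the precision rests on the spread of 3 libraries per group. CORT was compared with Veh within each tissue by limma on log2(TPM + 1). A gene was called where the Benjamini-Hochberg adjusted p over all tested genes was 0.05 or less and the fold change over 1.5. In both tissues Fkbp5, a classic glucocorticoid target, was called higher in CORT, with a log2 fold change of 4.30 in the duodenum and 4.23 in the liver. The 8 hepatocyte markers were all detected in the liver and summed to between 77122 and 108874 TPM, and the 11 enterocyte markers were all detected in the duodenum. Enterocyte markers summed to between 33583 and 49870 TPM in the Veh duodenum and between 60206 and 69642 TPM in the CORT duodenum. Of these 11 markers, 7 had positive and 4 had negative fold changes there, and 1 was called higher. The 21 pancreatic acinar markers summed to 39735 TPM in Veh2 and 31746 TPM in Veh3 of the duodenum, but to 186 TPM in Veh1 and between 145 and 322 TPM in CORT. In these bulk samples, fewer cells of a type and less RNA per cell cannot be told apart.

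In the Veh duodenum, Slc5a1 stood at the top of the 9 genes, at 1158 ± 138 TPM (SD, n = 3), followed by Khk at 374 ± 58.3 TPM (SD, n = 3). Below them came Slc2a2 at 167 ± 41.0 TPM, Slc2a5 at 146 ± 6.89 TPM and Txnip at 121 ± 24.1 TPM (each SD, n = 3). The ranges of Slc2a2 and Slc2a5 overlapped, as did those of Slc2a5 and Txnip, so their order was not clear. Slc2a7 at 22.4 TPM and Slc2a9 at 21.0 TPM also overlapped, while Slc5a9 (12.2 TPM) and Slc2a1 (6.42 TPM) were lowest, without overlap. In the CORT duodenum Txnip lay above Slc2a2 and Slc2a5 in every library, and Slc2a7 had moved below Slc2a9 in mean, to ranges that overlapped Slc5a9.

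With CORT, 2 of the 9 genes were called in the duodenum: Txnip rose 2.14-fold and Slc2a7 fell 2.55-fold. Neither call held without the filter on low values (limma adjusted p = 0.0742 for Txnip and 0.0793 for Slc2a7). Without that filter 0.209% of all 24876 genes tested were called. Over all 13607 genes tested there, 2.15% were called in either direction, 1.23% higher and 0.919% lower. All 9 genes were above the limit of 1 TPM in both groups. Complete separation of CORT from Veh was seen for 5 of the 9 (Txnip, Slc2a7, Slc2a5, Slc2a9 and Slc2a1), against 26.4% of all tested genes. At an unadjusted p under 0.05 the same 5 passed, against 19.2% of all tested genes. The median log2 fold change of all 9 genes was -0.17, while over all tested genes it was -0.012. Of the transporters, 6 of 7 had a negative fold change, and Slc5a1 was the exception. Over all 13607 tested genes, 7009 had a negative one. The signs of Slc2a2 (log2 fold change -0.0095) and Slc5a9 (-0.17) did not hold in every fit that omitted a library.

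**Figure D1:**
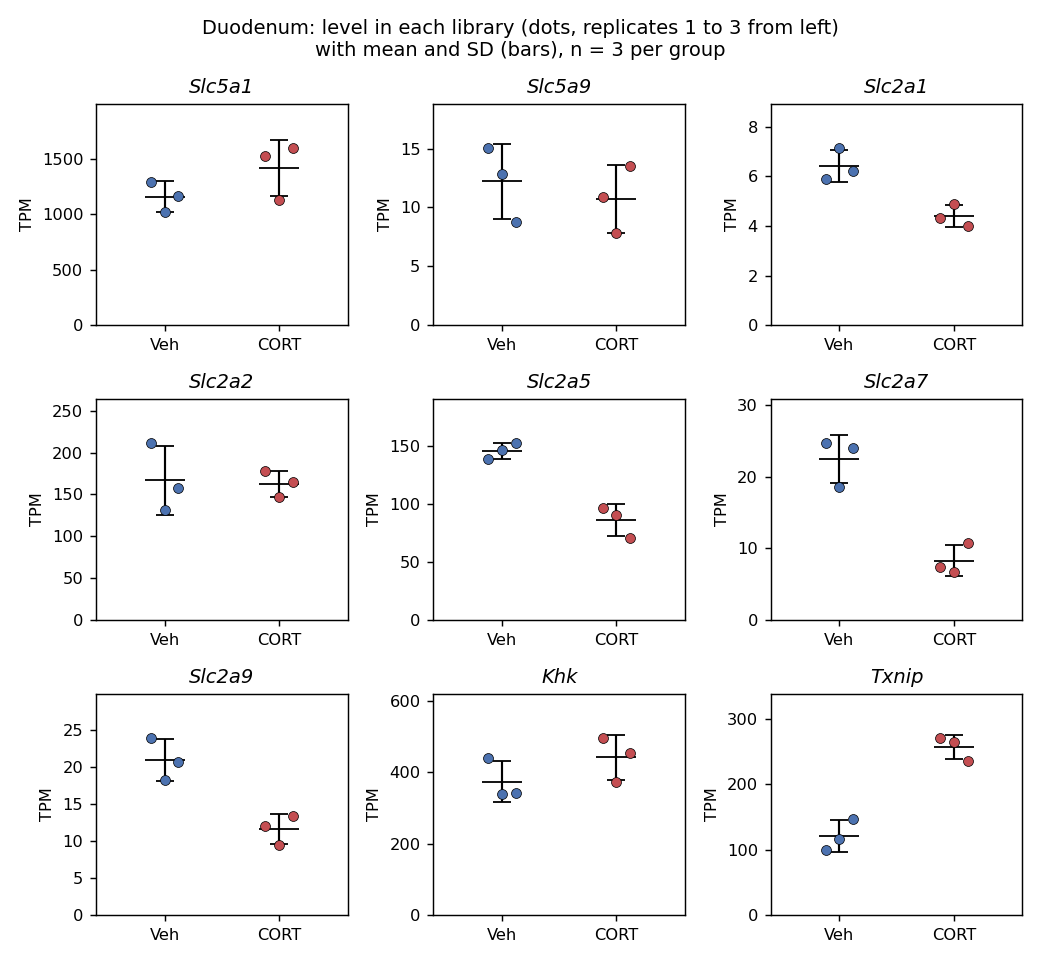
TPM of the 9 genes (vertical axes, linear and starting at 0) in each duodenum library, with Veh in blue, CORT in red, and the mean and SD of 3 libraries as bars. Txnip is higher in all CORT libraries, Slc2a5, Slc2a7, Slc2a9 and Slc2a1 are lower in all of them, and Slc5a1, Slc5a9, Slc2a2 and Khk overlap.

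Slc5a1 (ENSMUSG00000011034), which encodes the luminal glucose carrier SGLT1, was at 1292, 1016 and 1167 TPM in the Veh duodenum and at 1528, 1127 and 1596 TPM in CORT. CORT2 lay among the Veh values while CORT1 and CORT3 lay above all of them. The log2 fold change of 0.28 did not pass (95% interval -0.15 to 0.71, limma adjusted p = 0.445). Slc5a9 (ENSMUSG00000028544), which encodes SGLT4, a sodium-coupled carrier of mannose, fructose and glucose, was at 15.1, 12.8 and 8.73 TPM in Veh and at 10.9, 7.79 and 13.6 TPM in CORT. The groups overlapped throughout, with a log2 fold change of -0.17 (95% interval -0.76 to 0.42).

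Slc2a2 (ENSMUSG00000027690), the gene of GLUT2, was at 212, 131 and 158 TPM in Veh and at 178, 147 and 164 TPM in CORT. All 3 CORT values lay inside the Veh range, and the log2 fold change was -0.0095 (95% interval -0.47 to 0.45, limma adjusted p = 0.984). Slc2a1 (ENSMUSG00000028645), the gene of the widely expressed GLUT1, was low, at 5.91, 7.15 and 6.20 TPM in Veh and at 4.32, 4.88 and 3.98 TPM in CORT. Every CORT value of Slc2a1 lay below every Veh value, but the log2 fold change of -0.46 did not pass (limma adjusted p = 0.146). Beside it, the 6 smooth muscle markers all had negative fold changes (median log2 fold change -0.65, sums of 451 to 902 TPM in Veh and 298 to 484 TPM in CORT). The 5 erythroid markers all had positive ones, with sums of 119 to 247 TPM in Veh and 366 to 706 TPM in CORT. Sums of 4 endothelial markers overlapped, at 24.3 to 33.2 TPM in Veh and 23.5 to 33.5 TPM in CORT. None of these markers was called by limma, and their part in the Slc2a1 values was not tested.

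Slc2a5 (ENSMUSG00000028976), the gene of the fructose carrier GLUT5, was at 139, 147 and 153 TPM in Veh and at 96.9, 90.7 and 70.8 TPM in CORT. The highest CORT value was well below the lowest Veh value, and the Veh libraries differed little among themselves. The log2 fold change was -0.77 (SE, the standard error, 0.15), a 1.70-fold difference, and the limma adjusted p of 0.0559 lay just above the limit. Slc2a9 (ENSMUSG00000005107), the gene of GLUT9, known mainly as a carrier of urate, was at 24.0, 18.3 and 20.7 TPM in Veh and at 12.1, 9.47 and 13.4 TPM in CORT. Its groups did not overlap either, with a log2 fold change of -0.80 (SE 0.17, limma adjusted p = 0.0662). Neither gene was called in the fit of the duodenum alone. Slc2a5 passed after removal of the pancreatic marker genes and rescaling (log2 fold change -0.80, limma adjusted p = 0.0464), where Slc2a9 did not (-0.83, limma adjusted p = 0.0513), and Slc2a9 passed with both tissues in 1 fit (limma adjusted p = 0.0235), where Slc2a5 did not (0.128).

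Slc2a7 (ENSMUSG00000062064), the gene of GLUT7, an intestinal relative of GLUT5 described as a carrier of glucose and fructose, was at 24.7, 18.6 and 24.0 TPM in Veh. In CORT it was at 7.33, 6.75 and 10.8 TPM, below every Veh value. The log2 fold change was -1.35 (SE 0.20, limma adjusted p = 0.0272). In the 6 fits that each omitted a library, the log2 fold change was between -1.53 and -1.23. At 5 libraries the call held in 1 of the 6 fits, that without CORT3 (limma adjusted p = 0.0276). Without Veh1, Veh2, Veh3, CORT1 or CORT2 the limma adjusted p was between 0.0582 and 0.113. In these 6 fits between 0.485% and 1.74% of all tested genes were called, against 2.15% with all 6 libraries.

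Slc2a5 and Slc2a7 are neighbours on chromosome 4, with starts 29543 bases apart in the RefSeq table of GRCm38.p6. The 250 bases before each start are shown because both genes lay lower in every CORT library. The Slc2a5 window is chr4:150119094-150119343 and the Slc2a7 window is chr4:150148637-150148886, both on the plus strand and of build GRCm38.p6, whereas the tables were made on GRCm39. Capitals mark AGAACA, the core hexamer of a glucocorticoid response element, on either strand.
Slc2a5: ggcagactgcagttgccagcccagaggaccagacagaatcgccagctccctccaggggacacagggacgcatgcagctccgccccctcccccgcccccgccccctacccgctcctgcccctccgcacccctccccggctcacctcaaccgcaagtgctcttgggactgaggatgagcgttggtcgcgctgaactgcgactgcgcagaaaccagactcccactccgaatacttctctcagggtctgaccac
Slc2a7: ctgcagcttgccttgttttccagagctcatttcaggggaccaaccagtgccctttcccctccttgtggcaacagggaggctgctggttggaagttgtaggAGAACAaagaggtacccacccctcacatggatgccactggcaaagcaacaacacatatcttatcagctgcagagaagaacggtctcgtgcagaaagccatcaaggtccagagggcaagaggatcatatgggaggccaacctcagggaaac
The Slc2a5 window is rich in G and C (66.4%) and holds no capitals, while the Slc2a7 window (53.2% G and C) holds 1 copy, at positions -150 to -145 relative to the start. AGAACA is in 16.1% of the 32851 promoter windows of the table, so 1 copy is no rare feature. Windows were found for 8 of the 9 genes, and Slc5a9 had none in the table. AGAACA was in 2 of the 8, Slc2a7 and Slc5a1. The full element (AGAACA and, 3 bases on, TGTTCT) and an HNF1 element (GTTAAT and, 1 base on, ATTAAC) were in none of the 8, and each was in 0.00913% of all windows. TATAAA was in none of the 8 and in 12.4% of all windows.

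Txnip (ENSMUSG00000038393) was at 99.8, 116 and 147 TPM in the Veh duodenum and at 272, 265 and 236 TPM in CORT. Every CORT value lay well above every Veh value. The log2 fold change was 1.10 (SE 0.17, limma adjusted p = 0.0305). When 1 library at a time was omitted, it was between 0.97 and 1.25. The call held in 1 of these 6 fits, that without Veh3 (limma adjusted p = 0.0496). Without Veh1, Veh2, CORT1, CORT2 or CORT3 the limma adjusted p was between 0.0509 and 0.101. The share called over all tested genes also fell in these fits, as given for Slc2a7. Arrdc4, a close relative of Txnip and like it a target of MondoA and ChREBP, was at 8.0, 8.17 and 9.86 TPM in Veh and at 14.3, 14.9 and 13.8 TPM in CORT. Its groups did not overlap, and the log2 fold change of 0.67 had a limma adjusted p of 0.0516. Of the 9 genes listed for sugar sensing and alpha-arrestins, Arrdc4 among them, 5 had positive and 4 negative fold changes. Only G6pdx was called, as lower, against 0.919% of all tested genes called lower.

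The 250 bases before the start of Txnip (chr3:96557707-96557956, plus strand, GRCm38.p6) are shown because they hold a carbohydrate response element, searched as 2 copies of CACGNG that lie 5 bases apart, on both strands. Capitals mark the match.
Txnip: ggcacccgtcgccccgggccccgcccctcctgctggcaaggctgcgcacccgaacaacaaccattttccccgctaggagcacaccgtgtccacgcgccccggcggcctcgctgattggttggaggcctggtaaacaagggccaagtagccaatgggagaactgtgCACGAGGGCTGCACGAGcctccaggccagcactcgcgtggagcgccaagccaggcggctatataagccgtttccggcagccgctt
The match lies at positions -85 to -69 relative to the start. Of the 8 windows, only that of Txnip had such a match, which 15 of all 32851 windows (0.0457%) held. A single E-box CACGTG was in the windows of Khk (positions -71 to -66) and Slc5a1 (positions -143 to -138), and in 6.02% of all windows. These matches describe the sequence and are not measurements of binding.

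Khk (ENSMUSG00000029162) was at 442, 340 and 341 TPM in the Veh duodenum and at 497, 374 and 456 TPM in CORT. Veh1 lay above CORT2, so the groups overlapped, and the log2 fold change of 0.24 did not pass (95% interval -0.16 to 0.65, limma adjusted p = 0.478). Tkfc was at 310, 269 and 272 TPM in Veh and at 425, 386 and 441 TPM in CORT, without overlap, but its log2 fold change of 0.56 did not pass (limma adjusted p = 0.0792). Of the genes listed for fructose and polyol use, 4 are reported here (Tkfc, Sord, Akr1b3 and Glyctk). All 4 had positive log2 fold changes, with a median of 0.47, as had 6598 of all 13607 tested genes. By limma 0 were called, against 2.15% of all tested genes, and 2 had an unadjusted p under 0.05, against 19.2%. Over all settings run, the lowest log2 fold changes were 0.058 for Tkfc, 0.0016 for Akr1b3, -0.060 for Sord and -0.26 for Glyctk.

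The values were also set against the enterocyte markers, by subtracting each library's mean log2 level over the 11 markers. The mean log2 level of these markers was 0.50 higher in CORT, and the subtraction moved the median change over all genes to -0.51. The list was mixed, with 7 markers positive, 4 negative and 1 called higher, so this scale is not a uniform measure of enterocytes. On this scale the log2 fold changes were -1.85 for Slc2a7, -1.30 for Slc2a9, -1.26 for Slc2a5 and -0.96 for Slc2a1, and all 4 were called, as were 22.7% of all tested genes. Txnip stood at 0.60 and was no longer called (limma adjusted p = 0.114). Slc5a1 and Khk turned to -0.22 and -0.25, both above the median of all genes on that scale and neither called. The part of enterocyte content in these differences was not tested. Veh1, the Veh library with few acinar transcripts, held the lowest Txnip value and the highest Slc2a7 value of the Veh group, as it was lowest of Veh for 27.3% and highest for 50.01% of all tested genes. With the acinar-rich Veh2 and Veh3 both left out, the log2 fold change was 1.36 for Txnip and -1.49 for Slc2a7, and neither was called against the single Veh library that remained (limma adjusted p = 0.161 and 0.276). After removal of the pancreatic marker genes and rescaling, Txnip (log2 fold change 1.06, limma adjusted p = 0.0332) and Slc2a7 (-1.38, limma adjusted p = 0.0255) were called. That setting changes the scale only, and the part of acinar content was not tested.

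**Figure D2:**
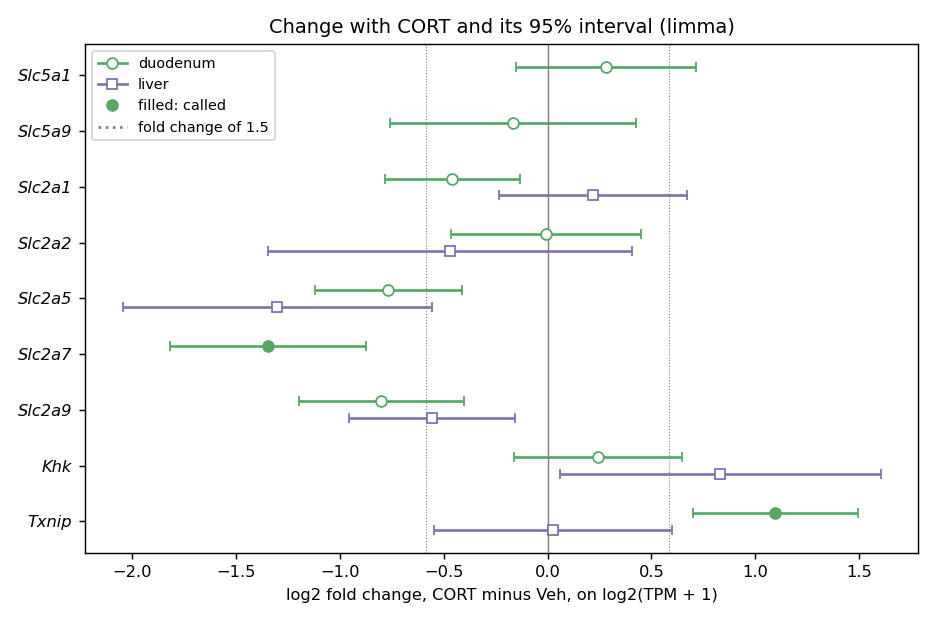
Log2 fold change of each gene, CORT minus Veh on log2(TPM + 1), with its 95% interval from limma, for the duodenum (circles) and the liver (squares). Filled markers are called genes, which are Slc2a7 and Txnip in the duodenum, and genes under 1 TPM in both liver groups have no square.

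Ratios of 2 genes within a library do not depend on how libraries are scaled to each other. Slc2a5 was 0.108, 0.144 and 0.131 of the Slc5a1 level in Veh and 0.0634, 0.0805 and 0.0443 of it in CORT. Relative to the glucose carrier, the fructose carrier was lower in every CORT library, a 2.08-fold difference. Slc2a5 relative to Slc2a2 was 0.656, 1.12 and 0.968 in Veh and 0.545, 0.617 and 0.431 in CORT, also without overlap. Khk relative to Slc2a5 was 3.18, 2.32 and 2.24 in Veh and 5.13, 4.13 and 6.44 in CORT, a 2.02-fold higher ratio. The ratio of Slc2a2 to Slc5a1 overlapped between groups, from 0.129 to 0.164 in Veh and from 0.103 to 0.1303 in CORT. An exact two-sided permutation test of 3 against 3 libraries cannot give a p below 0.1, and the ratios without overlap reached that value (adjusted p = 0.125 over the 5 ratios tested). The duodenum ratios without overlap all contain Slc2a5, whose own groups do not overlap, so they are not separate observations. Of the summed TPM of the 5 facilitative transporters, Slc2a7 made up 5.78% to 6.63% in Veh and 2.46% to 4.10% in CORT. The groups of Slc2a7 itself do not overlap, so this share is not a separate observation either.

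**Figure D3:**
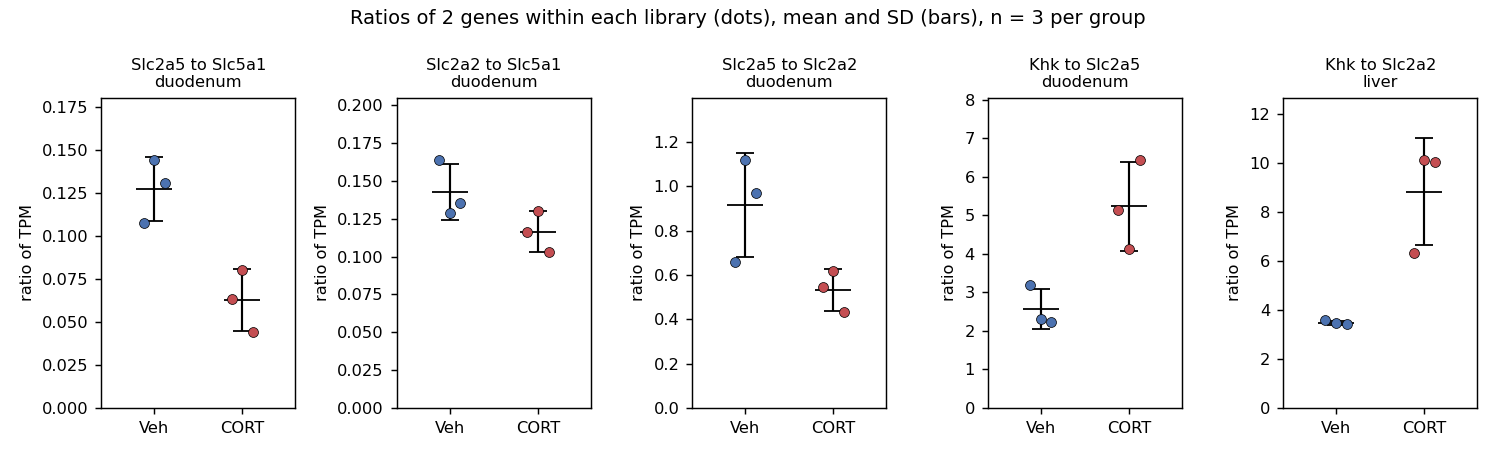
Ratio of the TPM of 2 genes within each library (vertical axes, linear and starting at 0), Veh in blue and CORT in red, with the mean and SD of 3 libraries. The groups do not overlap in 4 of the 5 panels, and Khk to Slc2a2 in the liver runs from 3.41 to 3.58 in Veh and from 6.34 to 10.1 in CORT. The duodenum panels without overlap all contain Slc2a5, whose own groups do not overlap.

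The wider list of sugar transport and use held 54 further genes reported here, of which 49 were tested in the duodenum. There, 2 rose (G6pc and Pfkfb2) and 2 fell (Slc5a4a and G6pdx), and the median log2 fold change of the 49 was -0.11. Over all genes tested there, 1.23% were called higher and 0.919% lower, and the median was -0.012. Of these 49 genes, 3 exceeded the limit of 1 TPM in 1 group only. The catalytic subunit of glucose 6-phosphatase, G6pc, was at 24.8, 9.84 and 10.6 TPM in Veh and at 101, 124 and 73.4 TPM in CORT. Its log2 fold change was 2.73 (SE 0.36, limma adjusted p = 0.0205). G6pc releases free glucose from glucose 6-phosphate, and Slc37a4, which brings the substrate to it, had a log2 fold change of 0.54 that did not pass (limma adjusted p = 0.180). Slc5a4a, a sodium-coupled relative of Slc5a1, was at 81.0, 35.1 and 47.8 TPM in Veh and at 12.7, 8.71 and 15.7 TPM in CORT, and its log2 fold change was -2.01 (limma adjusted p = 0.0350). Its close copy Slc5a4b had a log2 fold change of -0.35 with overlapping groups, and reads may be split between the 2 genes, so both values are uncertain. G6pdx, the first enzyme of the pentose phosphate pathway, was at 43.6, 54.1 and 55.9 TPM in Veh and at 29.9, 24.5 and 25.97 TPM in CORT, and fell by 0.91 (limma adjusted p = 0.0336).

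Pfkfb2, an enzyme that sets the level of fructose 2,6-bisphosphate, was at 7.72, 7.81 and 8.61 TPM in the Veh duodenum and at 14.0, 22.1 and 16.8 TPM in CORT (log2 fold change 1.02, limma adjusted p = 0.0392). Of the hexokinases, Hkdc1 was the most abundant in the duodenum, at 135 to 157 TPM in Veh and 103 to 142 TPM in CORT, and none of the 4 that were tested was called. Hk1 had a log2 fold change of -0.23 and Hk2 one of 0.32. Of the other facilitative transporters, Slc2a4 (log2 fold change -0.34) and Slc2a8 (-0.35) lay lower in every CORT library without passing, and Slc2a3 had overlapping groups (-0.11). Pklr, liver-type pyruvate kinase, lay lower in every CORT library (log2 fold change -0.27). Mlxipl, the gene of ChREBP, overlapped between groups (-0.14), and neither was called. When 1 library at a time was omitted, the calls held in 2 of the 6 fits for G6pc (without Veh1 or CORT3) and Slc5a4a (without Veh1 or Veh2). They held in 1 for G6pdx (without Veh1) and in 0 for Pfkfb2. Over all tested genes between 0.485% and 1.74% were called in these fits, against 2.15% with all 6 libraries.

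**Figure D4:**
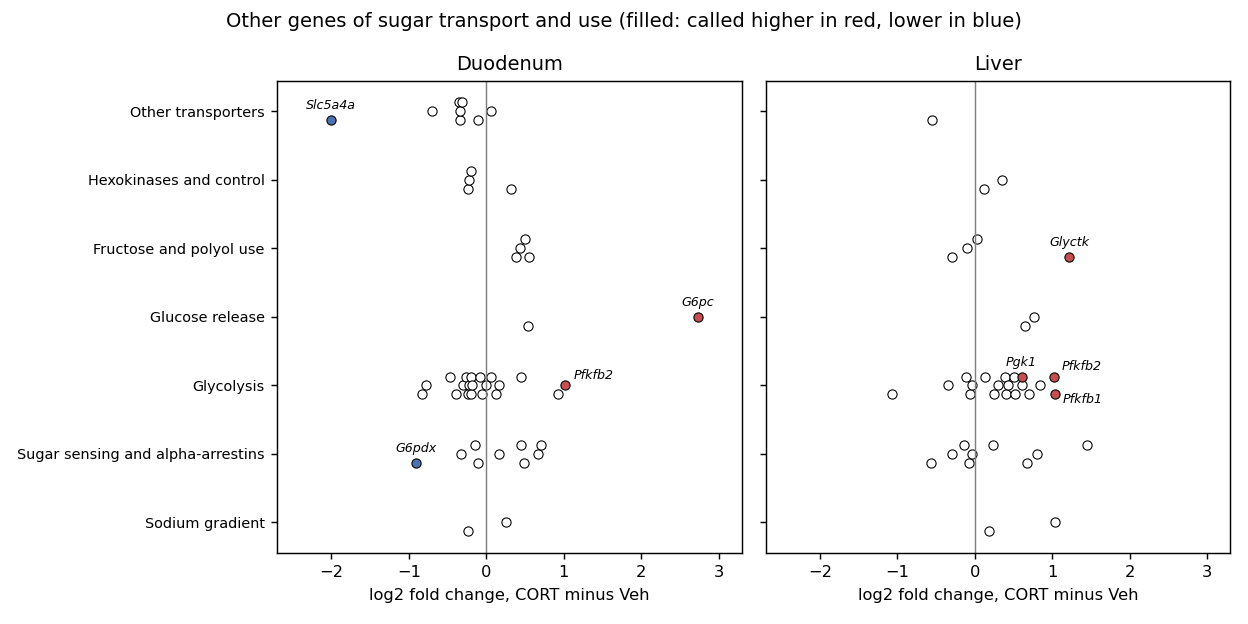
Log2 fold change (horizontal axis, CORT minus Veh on log2(TPM + 1)) of the tested genes of each class of the wider list, with 1 dot per gene, for the duodenum and the liver. Filled and named dots are called genes, 2 higher and 2 lower in the duodenum and 4 higher in the liver.

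In the liver Khk led at 301 ± 108 TPM (SD, n = 3) in Veh, followed by Txnip at 89.0 ± 26.7 TPM and Slc2a2 at 86.6 ± 32.7 TPM (each SD, n = 3), whose ranges overlapped. Slc2a9 (15.5 TPM), Slc2a5 (6.85 TPM) and Slc2a1 (4.09 TPM) followed without overlap. Slc5a1 was at 0.18 to 0.73 TPM in Veh and 0.20 to 0.32 TPM in CORT. Slc5a9 was listed at 0 in 5 of the 6 libraries and at 0.02 TPM in CORT2, and Slc2a7 was listed at 0 in all 6. These 3 genes were under the limit of 1 TPM and were not tested. The liver and duodenum tables were made separately, so levels are not tested between them.

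None of the 6 tested genes was called in the liver by limma, where 6.92% of 11699 genes were called, and 3 of the 6 (Slc2a5, Slc2a9 and Khk) had an unadjusted p under 0.05, against 25.9% of all tested genes. Complete separation was seen for 2 of the 6 (Slc2a5 and Slc2a9), against 32.2% of all tested genes. Slc2a5 was at 6.02, 5.30 and 9.22 TPM in Veh and at 2.00, 3.66 and 1.15 TPM in CORT, lower in every CORT library. Its log2 fold change of -1.30 (SE 0.32) had a limma adjusted p of 0.0555. Without CORT2 it was -1.60 and passed (limma adjusted p = 0.0371). Without any other single library the limma adjusted p was between 0.0726 and 0.165, and Slc2a5 was called in 2 of the 13 alternative settings. Slc2a9 was at 12.3, 19.0 and 15.3 TPM in Veh and at 10.6, 9.92 and 9.76 TPM in CORT, where the CORT libraries were close together and all below Veh. Its log2 fold change of -0.55, a 1.47-fold difference, did not pass (limma adjusted p = 0.0966). Slc2a9 passed in 1 of the 13 alternative settings, where each library was divided by its median ratio to the average library (-0.64, limma adjusted p = 0.0225).

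**Figure D5:**
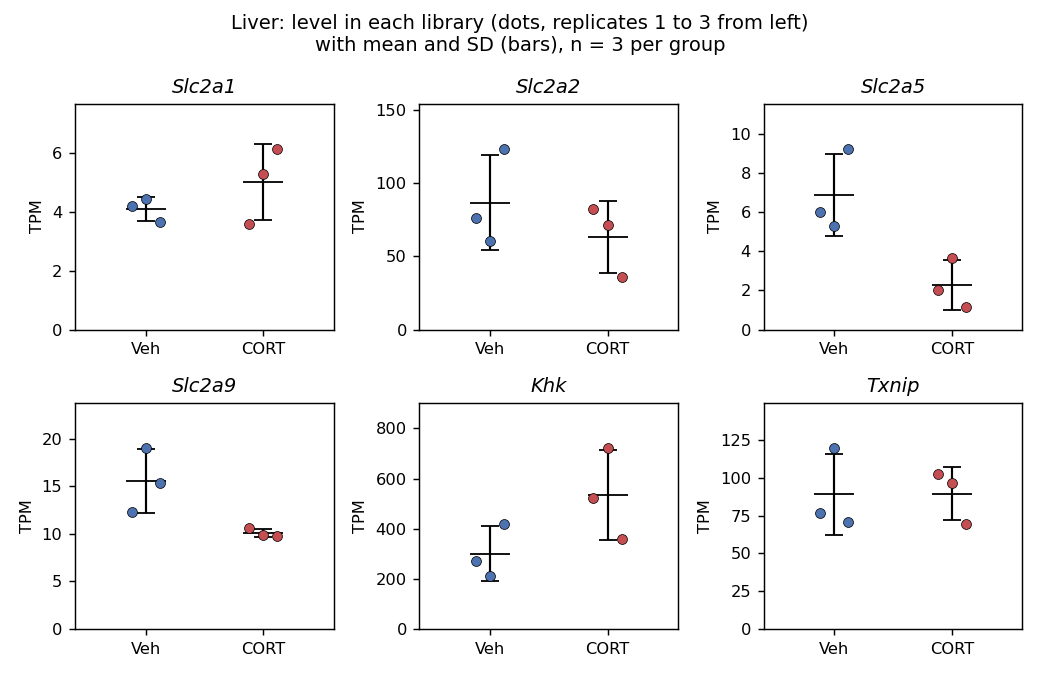
TPM of the 6 genes tested in the liver (vertical axes, linear and starting at 0) in each library, with Veh in blue, CORT in red, and the mean and SD of 3 libraries as bars. Slc2a5 and Slc2a9 are lower in all CORT libraries, while Slc2a1, Slc2a2, Khk and Txnip overlap.

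Khk was at 271, 210 and 420 TPM in the Veh liver and at 523, 721 and 360 TPM in CORT. Veh3 lay above CORT3, so the groups overlapped, and the log2 fold change of 0.83 did not pass (95% interval 0.058 to 1.604, limma adjusted p = 0.168). Slc2a2 was at 75.9, 60.6 and 123 TPM in Veh and at 82.5, 71.1 and 35.7 TPM in CORT, again with Veh3 highest and CORT3 lowest, and a log2 fold change of -0.47 (95% interval -1.35 to 0.40). Within a library, however, Khk was 3.58, 3.47 and 3.41 times the level of Slc2a2 in Veh and 6.34, 10.1 and 10.1 times it in CORT. The ratio was nearly constant among the Veh libraries and higher in every CORT library, a 2.48-fold difference (exact permutation p = 0.1, the smallest possible, adjusted p = 0.125). Txnip was at 76.9, 120 and 70.5 TPM in Veh and at 103, 96.5 and 69.5 TPM in CORT, with full overlap and a log2 fold change of 0.028 (95% interval -0.55 to 0.60). Slc2a1 was at 4.19, 4.44 and 3.64 TPM in Veh and at 3.60, 5.29 and 6.14 TPM in CORT, also with overlap (log2 fold change 0.22). Of the endothelial markers, all 4 had positive fold changes in the liver and 1 was called higher, with sums of 4.92 to 13.6 TPM in Veh and 20.9 to 28.3 TPM in CORT, and their part in the Slc2a1 values was not tested.

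CORT3 held the lowest value of the CORT group for 5 of the 6 genes in the liver, where it was lowest for 36.6% of all tested genes. Veh3 held the highest Veh value for 3 of the 6, against 16.1% of all tested genes, and Veh2 for the other 3, against 68.8%. For the 45 genes of both lists that were tested there, CORT3 was lowest for 26. Pklr varied widely, at 128, 125 and 329 TPM in Veh and at 182, 393 and 57.1 TPM in CORT, with Veh3 high and CORT3 low as for Slc2a2. The hepatocyte markers summed to 81920 TPM in CORT3 and to 93540 and 98770 TPM in the other CORT libraries.

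Of the wider list, 39 genes were tested in the liver, 4 rose (Glyctk, Pfkfb1, Pfkfb2 and Pgk1) and none fell, with a median log2 fold change of 0.29 against 0.078 over all tested genes. Of these 39, 2 exceeded the limit in 1 group only. In direction, 4.91% of all tested genes were called higher and 2.01% lower. Glyctk, which phosphorylates glycerate, a side product of fructose breakdown, was at 54.5, 68.6 and 50.8 TPM in Veh and at 150, 138 and 119 TPM in CORT (log2 fold change 1.22, limma adjusted p = 0.00912). Glyctk kept its call in all 6 fits that left out a library. Pfkfb2 kept it in 2 (without Veh2 or CORT2), Pfkfb1 in 1 (without CORT3) and Pgk1 in 1 (without Veh2). Over all tested genes between 2.1% and 7.17% were called in these fits, against 6.92% with all 6 libraries.

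Pfkfb1, the liver form of the enzyme for fructose 2,6-bisphosphate, had a log2 fold change of 1.04 and Pfkfb2 one of 1.02 in the liver (limma adjusted p = 0.0390 and 0.0273), and the glycolytic enzyme gene Pgk1 one of 0.60 (limma adjusted p = 0.0318). Pfkfb2 was low, at 0.86, 1.48 and 1.11 TPM in Veh and at 3.92, 2.74 and 3.45 TPM in CORT. Its ratio of mean TPM was 2.93, which log2(TPM + 1) understates. G6pc was at 80.3, 31.6 and 121 TPM in Veh and at 138, 138 and 81.3 TPM in CORT, and its log2 fold change of 0.77 did not pass (limma adjusted p = 0.357). Tkfc (log2 fold change -0.30) overlapped between groups. Mlxipl was at 61.3, 57.1 and 52.4 TPM in Veh and at 42.9, 31.1 and 41.3 TPM in CORT, lower in every CORT library, without passing (log2 fold change -0.57, limma adjusted p = 0.0784). Slc37a4 had a log2 fold change of 0.65, Slc2a8 one of -0.55, Arrdc4 one of -0.14 and Hk1 one of 0.35, and none of these was called. Slc5a4a was listed at 0 in all 6 liver libraries, and Slc2a3, Slc2a4, Slc5a4b, Hk2 and Hkdc1 were under the limit.

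The responses of the tissues were compared by limma as the difference between the CORT effects, each taken within its own table, with all 12 libraries treated as independent. For Txnip the effect in the duodenum exceeded that in the liver by 1.07 on the log2 scale (SE 0.31), which did not pass (limma adjusted p = 0.0910), and passed under median-ratio scaling (1.17, limma adjusted p = 0.0385). Slc2a5 and Slc2a9 had negative fold changes in both tissues. Their differences between tissues were 0.54 (SE 0.37) and -0.25 (SE 0.24), and neither passed (limma adjusted p = 0.488 and 0.638). For Slc2a1, with opposite signs, the difference was -0.68 (limma adjusted p = 0.147). None of the 8 genes other than Slc2a7 passed, against 3.61% of 14806 genes tested. Slc2a7 was listed at 0 in all liver libraries, so its difference of -1.35 is its duodenum fold change over again and does not compare the tissues.

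The genes whose profiles over the 6 libraries of a tissue lay nearest to a member were found by the root mean square distance of centred log2(TPM + 1), among genes averaging 10 TPM or more. For Txnip in the duodenum they were Icosl (distance 0.075), Ip6k2 (0.15) and Glul (0.16), with log2 fold changes of 1.07, 1.05 and 1.27. For Slc2a7 they were Slc6a20a (0.17), a carrier of proline, Rac2 (0.17), a small GTPase of blood cells, and Serhl (0.19), with log2 fold changes of -1.18, -1.28 and -1.20. In the liver, where no member was called, the 2 genes with the largest changes were used. Nearest to Slc2a5 were Sucnr1 (0.17), the succinate receptor, and Hmgcs1 (0.20) and Cyp51 (0.22), genes of cholesterol synthesis, with log2 fold changes of -1.34, -1.32 and -1.09. Nearest to Khk were Hsd17b10 (0.13), Plscr2 (0.18) and Cyp2e1 (0.19), with log2 fold changes of 0.78, 0.75 and 0.85. The distance was taken over 6673 genes in the duodenum and 4888 or 4887 in the liver, and it describes these libraries only. Genes chosen by this distance have fold changes like the member's by construction, so those values are no further observation.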

How the data were processed

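Duodenum and liver RNA-seq was analysed in 3 CORT and 3 Veh libraries per tissue. Sample titles gave the group and replicate number, and sample descriptions matched the columns. Reads were trimmed (SeqPrep, Sickle), aligned (HISAT2), assembled (StringTie) and quantified (RSEM) by the authors, who deposited 1 TPM value per gene and library. The submitters' processing notes name GRCm39. Tool versions are not given in the sources used here, and the read depth is unknown.

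The TPM values were tested as log2(TPM + 1) in R 4.3.3 by limma 3.58.1 (linear model, moderated variance with trend), CORT against Veh in each tissue, for genes whose mean reached 1 TPM in a group, with Benjamini-Hochberg adjustment over all of them. Fold changes on this scale understate those of low genes. P-values set each difference against the spread between these libraries, with each gene's variance moderated by that of the other tested genes. The code was tested on simulated data. The 9 genes, the wider list, the marker lists and the motifs were chosen with earlier results of these data known. Named genes were the 9, a fixed set and the called genes of the wider list, the 3 nearest genes by profile and Fkbp5, and Sord and Akr1b3 were added to complete their class. The symbol Aldoa had 2 entries, of which the higher was used. Some genes of the wider list are not reported here and enter none of its counts. Promoter sequences are RefSeq's (GRCm38.p6).

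Alternatives were a pseudocount of 0.1, dropping the filter, a replicate block, omitting each library, no fold limit, median-ratio scaling, both tissues in 1 fit, removing 25 pancreatic marker genes, and levels relative to enterocyte or hepatocyte markers. Omitting both acinar-rich Veh libraries was chosen after seeing the data.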

Additional observations from a re-analysis of the deposited data

Results flagged for a closer look

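Slc2a7 was singled out because the test of the difference between the tissues' CORT effects passed for it (difference -1.35 on the log2 scale, duodenum minus liver). It was listed at 0 in all 6 liver libraries, so the difference equals the duodenum fold change by construction and is no evidence that the tissues respond differently. Groups of 3 libraries are too small for the test of single far samples.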

How the results depend on the processing

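In the duodenum 2 of the 9 genes were called. None was called without a filter on low values, with the replicate block or without both acinar-rich Veh libraries (0 each), 4 were called relative to the enterocyte markers, and between 0 and 1 with each library left out. The other settings gave 2 or 3. The wider list went from 4 called genes to 0 without a filter, to 0 with the replicate block, to 0 without both acinar-rich libraries and to 16 relative to the enterocyte markers, and to between 0 and 3 with each library left out. Over all genes tested in the duodenum, 2.15% were called in the main fit and 0.209% without a filter. The share was 0.456% with the replicate block, 22.7% relative to the enterocyte markers and 0.485% to 1.74% with each library left out. Without a filter 24876 genes were tested. Leaving out both acinar-rich libraries leaves 1 Veh library, assumed to vary like the CORT libraries. For the other changes the cause was not tested. In the liver 0 of the 9 were called, 1 under median-ratio scaling (Slc2a9), 1 with both tissues in 1 fit (Slc2a5) and between 0 and 1 with each library left out. Of the wider list 4 were called, 2 without a filter, 2 with the replicate block and 8 with both tissues in 1 fit. Between 1 and 4 were called with each library left out. Over all genes tested in the liver, 6.92% were called in the main fit and 1.21% without a filter. The share was 2.62% with the replicate block, 8.69% with both tissues in 1 fit and 2.1% to 7.17% with each library left out. The difference between tissues was called for 1 gene (Slc2a7, at 0 throughout the liver), for 0 at a pseudocount of 0.1 and for 2 (Slc2a7 and Txnip) under median-ratio scaling.

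Some fold changes that were never called changed sign. In the duodenum Slc2a2 ran from -0.17 to 0.18 (above 0 without Veh1 or CORT2) and Slc5a9 from -0.37 to 0.026 (above 0 without CORT2) when single libraries were omitted, and relative to the enterocyte markers Slc5a1 was at -0.22 and Khk at -0.25. Khk was at -0.0069 without both acinar-rich libraries. In the liver Txnip was between -0.12 and 0.26 when single libraries were omitted and at -0.067 under median-ratio scaling. In the duodenum the signs of Slc2a1, Slc2a5, Slc2a7, Slc2a9 and Txnip held in all settings run.

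Same-numbered Veh and CORT libraries did not deviate together (correlations over genes from -0.0039 to 0.073 in the duodenum and from -0.12 to 0.038 in the liver), so the replicate block pairs by number only. Among all tested genes the block left 62 calls of 292 in the duodenum and 307 of 810 in the liver. In the duodenum 2 of 3 CORT and 2 of 3 Veh libraries correlated best with their own number, and in the liver 0 of 3 and 1 of 3.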
